A study of Mus musculus with 12 samples.

Results

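The 36 coagulation and complement factors described here are liver-made plasma proteins of the clotting, fibrinolytic and complement cascades. They were taken by gene symbol from a list, which was chosen with earlier results of these data known. All 36 were found among the 37991 genes of the table, each under 1 row, with complement C5 under its mouse symbol Hc, and all 36 passed the filter of at least 1 FPKM in at least 3 libraries that 11213 genes passed. FPKM, which counts fragments relative to gene length and library depth, is a level comparable between genes. RNA sequencing was performed on primary hepatocytes of 10-week-old male mice whose REV-ERBα and REV-ERBβ genes, Nr1d1 and Nr1d2, both carried loxP sites in every group. Mice had been injected 2 weeks before with an AAV8 virus whose TBG promoter, active in hepatocytes, drove Cre with GFP (KO-labelled) or GFP alone (control). Plated cells received DMSO, the solvent, or 10 µM SR9009, a compound described as a REV-ERB agonist, for 8 h, which gave 4 groups of 3 libraries, named by virus and medium as control DMSO, KO-labelled DMSO, control SR9009 and KO-labelled SR9009. No group carried Cre without loxP sites, so an effect of Cre and one of the floxed alleles' recombination cannot be told apart. The labels do not state whether the 3 libraries of a group came from separate mice or separate plates. The p-values therefore reflect the spread between these libraries alone, which may be technical.

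Clotting runs through a series of serine proteases, made by the liver as inactive zymogens, that end in thrombin cutting fibrinogen to fibrin. Antithrombin, heparin cofactor II and the protein C system restrain it, and plasmin dissolves the clot. Complement is started by antibody, by lectins that bind microbial sugars or by slow spontaneous turnover of C3, and its branches meet at C3 and end in the pore of C5b to C9. Hepatocytes are the main source of nearly all of these proteins, and several of them, fibrinogen above all, are acute phase proteins. REV-ERBα and REV-ERBβ are heme-binding nuclear receptors of the circadian clock that repress transcription from sites built on the core motif of nuclear receptors.

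The promoters of F11, Serpind1, C9 and Mbl2, the 4 factors with the largest log2 changes in the comparison of genotypes in DMSO or in either SR9009 comparison, are shown to set their sequences beside their levels. Each runs 5′ to 3′ on the gene's strand from 250 bases before to 50 bases after the start site, is taken from RefSeq on GRCm38.p6, which is not the mm9 build of the expression table, and has motif matches in capitals.
F11: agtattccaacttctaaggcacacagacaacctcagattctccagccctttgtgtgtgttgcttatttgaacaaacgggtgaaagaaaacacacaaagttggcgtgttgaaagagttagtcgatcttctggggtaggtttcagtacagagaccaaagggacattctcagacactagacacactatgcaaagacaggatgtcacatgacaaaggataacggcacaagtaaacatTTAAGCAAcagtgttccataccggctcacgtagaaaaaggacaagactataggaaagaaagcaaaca
Serpind1: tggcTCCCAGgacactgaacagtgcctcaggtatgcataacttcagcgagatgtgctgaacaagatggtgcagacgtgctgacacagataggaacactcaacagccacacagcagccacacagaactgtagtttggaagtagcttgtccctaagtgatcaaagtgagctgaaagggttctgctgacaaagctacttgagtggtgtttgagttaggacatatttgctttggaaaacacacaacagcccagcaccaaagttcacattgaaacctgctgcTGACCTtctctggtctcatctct
C9: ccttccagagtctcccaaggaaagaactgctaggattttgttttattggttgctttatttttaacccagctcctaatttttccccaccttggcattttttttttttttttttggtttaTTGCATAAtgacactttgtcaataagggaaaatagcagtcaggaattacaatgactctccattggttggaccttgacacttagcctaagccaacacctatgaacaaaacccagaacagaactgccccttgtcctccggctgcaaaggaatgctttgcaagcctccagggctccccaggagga
Mbl2: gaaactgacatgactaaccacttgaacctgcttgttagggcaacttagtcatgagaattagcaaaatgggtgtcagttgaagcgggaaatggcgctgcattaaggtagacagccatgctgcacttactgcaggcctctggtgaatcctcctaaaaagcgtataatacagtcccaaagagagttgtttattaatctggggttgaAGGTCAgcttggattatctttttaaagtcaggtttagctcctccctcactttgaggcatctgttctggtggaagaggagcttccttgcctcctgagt
The F11 window lies at chr8:45261982-45262281 on the minus strand, the Serpind1 window at chr16:17331121-17331420 on the plus strand, the C9 window at chr15:6445096-6445395 on the plus strand and the Mbl2 window at chr19:30232678-30232977 on the plus strand. F11 and C9 each held 1 match to the C/EBP motif TTGCNNAA, read as its reverse complement in F11. Mbl2 and Serpind1 each held 1 match to AGGTCA, the core that nuclear receptors read, as its reverse complement in Serpind1, which also held CTGGGA, an acute phase element, in reverse complement.

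Of the 36 factors, 28 had a promoter in that table. C4b, C2, Cfb, Plg, Masp1, Proc, Cfi and Kng1 had none. Both strands of all 32851 windows of that length were searched for 6 motifs. Factors were counted by gene, with a match in any window of the gene, whereas the share of all windows counts each window singly. AGGTCA was found in 12 of the 28 (C3, C6, C8b, F10, F2, F5, F7, F9, Fgg, Mbl2, Serpind1 and Serpinf2) and in 16.3% of all windows. TTGCNNAA was found in 9 (C3, C9, Cpb2, F11, F9, Fga, Fgb, Klkb1 and Serpinc1) and in 10.8% of all windows, and CTGGGA in 15 and in 31.8%. GTTAAT, part of the HNF1 site, occurred in 8 (C4bp, C8a, C8b, F13b, F2, Fga, Fgb and Hc) against 7.10% of all windows, TTCNNNGAA, read by STAT factors, in 6 against 8.30%, and the E-box CACGTG in 0 against 7.15%. A match is a description of the sequence, not a binding site.

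Some facts of the libraries bear on every value. Relative to the deepest library, control DMSO 1, depth was 55.5% in control SR9009 1, 63.4% in KO-labelled DMSO 1 and 77.0% to 92.3% in the others. Whole-gene levels of the targeted genes did not differ past the threshold between KO-labelled and control cells in DMSO (Nr1d1 log2 change -0.061, adjusted p = 0.492, Nr1d2 log2 change 0.078, adjusted p = 0.633, limma), and under SR9009 Nr1d1 was higher in KO-labelled than in control cells (log2 change 0.17, adjusted p = 0.0429) and Nr1d2 was not called (log2 change 0.20, adjusted p = 0.190). Nr1d1 also rose with SR9009 in KO-labelled cells (log2 change 0.30, adjusted p = 0.00472, limma). These levels did not show the loss that the KO label implies, and whole-gene levels do not check a deletion of part of a gene. Hepatocyte markers summed to 29486 to 36071 FPKM, against 37.8 to 63.3 FPKM for Kupffer cell, 7.03 to 16.1 for endothelial, 2.87 to 12.1 for cholangiocyte, 1.71 to 2.86 for stellate cell and 1.21 to 2.55 for platelet markers. Among single markers, Ppbp of platelets was at 0 in 11 libraries, Krt7 of cholangiocytes in 8 and Lrat of stellate cells in 7. Other markers of the same lists were above 0 in every library, among them Itga2b of platelets, Sox9 of cholangiocytes and Reln of stellate cells. Their means were 1.66, 6.61 and 1.73 FPKM. With DMSO, Kupffer markers summed to between 51.6 and 63.3 FPKM in control and between 37.8 and 50.5 in KO-labelled cells, where of 9 tested 1 was higher and 4 were lower. Endothelial markers summed to between 7.03 and 7.93 FPKM in control against 10.8 to 16.1 in KO-labelled cells, with 3 of 4 tested higher. Cholangiocyte markers summed to between 2.87 and 3.83 FPKM and between 8.09 and 11.7 there, with Sox9 the single one tested and higher. Sox9 made up most of that sum (2.67 FPKM on average in control and 9.09 in KO-labelled cells). Epcam read 0.400 to 0.697 FPKM in control and 0.144 to 0.263 in KO-labelled cells. Krt19 read 0 to 0.130 FPKM in control and 0 to 1.02 in KO-labelled cells, and Krt7 and Cftr stayed below 0.022 FPKM. The part of these cells in the results below was not tested. In bulk RNA, fewer cells of a type and less RNA per cell cannot be told apart.

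Several of the factors were among the most abundant transcripts of these cells, but ranks by mean level ran from 27 to 4976. Together the 36 factors made up 2.08% to 2.35% of the FPKM sum of a library. Fgb, the fibrinogen beta chain, ranked 27 of the 11213 tested genes by mean level, Fgg, the gamma chain, 48, Fga, the alpha chain, 51, C3, the hub of complement, 87, F2, prothrombin, 110, and Kng1, high molecular weight kininogen, 118. The lowest was Pros1, protein S, at 10.9 FPKM, and 19 of the 36 stood above 100 FPKM. The summed share of the 36 factors was 2.27% ± 0.00164 (SD, n = 3) in control DMSO against 2.30% ± 0.0638 in KO-labelled DMSO. With SR9009 it was 2.20% ± 0.114 in control and 2.25% ± 0.0716 in KO-labelled cells, and the ranges of the 4 groups overlapped.

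Within that sum the balance differed by genotype. The 3 fibrinogen chains made up 53.6% ± 0.459 (SD, n = 3) of the FPKM of the 36 factors in control DMSO and 53.7% ± 0.974 in control SR9009. They made up 48.2% ± 0.747 in KO-labelled DMSO and 49.5% ± 0.212 in KO-labelled SR9009, below every control library. In FPKM, the 3 chains summed to 6917 ± 144 in control DMSO against 6049.5 ± 318 in KO-labelled DMSO, and the remaining factors to 5996 ± 15.4 against 6497 ± 156. These shares and sums are of deposited values and were not tested. After quantile normalization Fgb was not called in DMSO and Fgg's log2 change was 0.019.

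**Figure D1:**
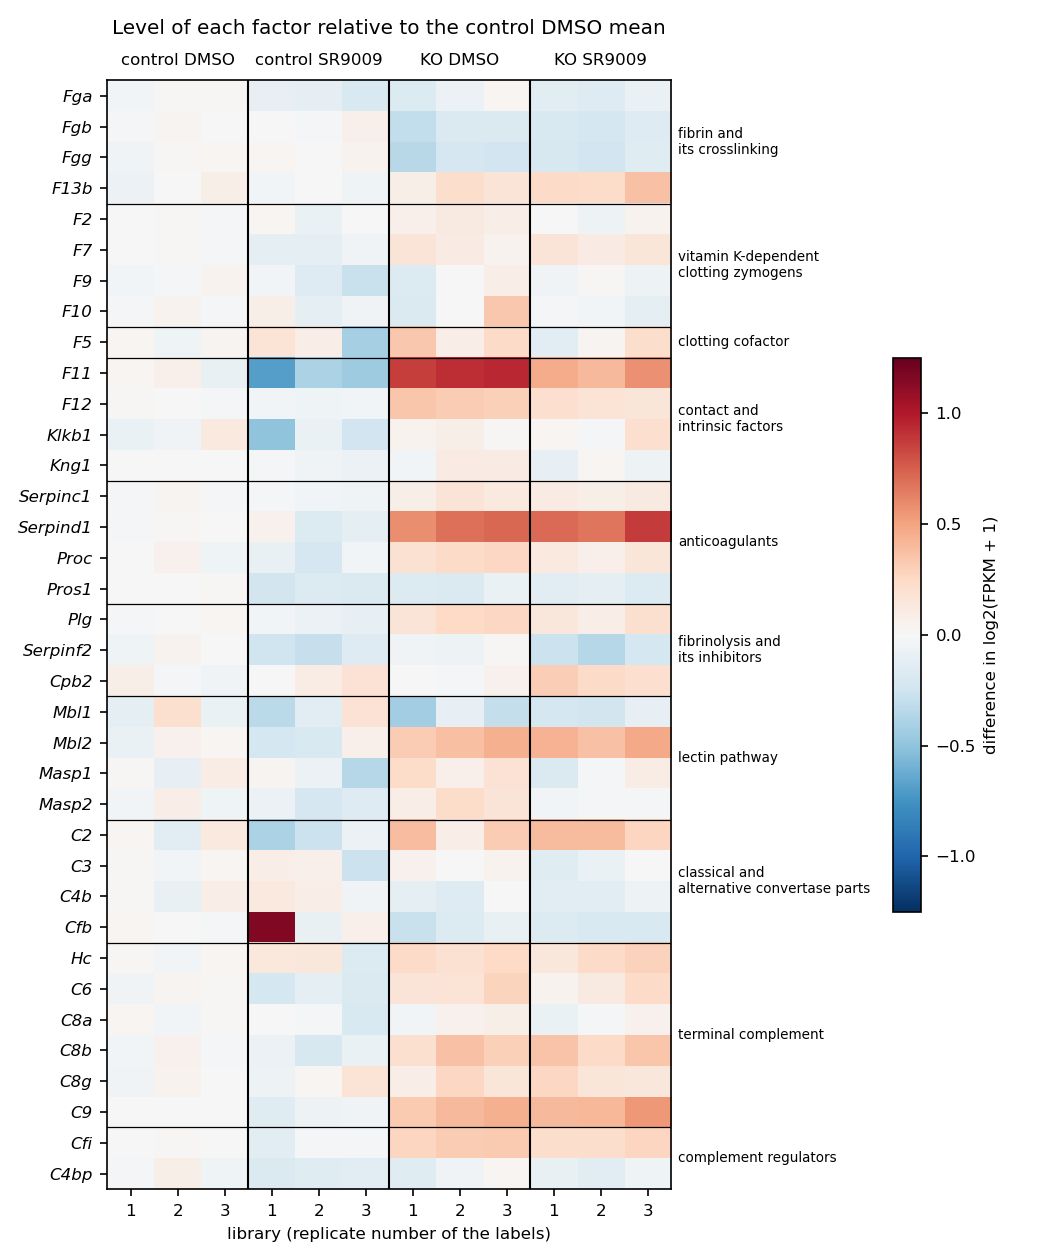
Heat map of the 36 factors (rows, by role) in the 12 libraries (columns, by group); colour is the log2 difference of FPKM + 1 from the mean of control DMSO. F11, Serpind1, Mbl2 and C9 stood higher in all 6 KO-labelled libraries than in control DMSO, Fgb and Fgg lower (on deposited values; Fgg did not fall after quantile normalization), and Cfb stood out in control SR9009 library 1.

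The first comparison asks how hepatocytes labelled KO differed from control cells in DMSO. In KO-labelled cells 12 of the 36 factors changed, 10 higher and 2 lower (limma, adjusted p under 0.05), which is 33.3% against 20% of all genes tested (11.7% higher, 8.32% lower). In 21 of the 36 the groups did not overlap, 17 higher and 4 lower, against 41.2% of all genes (23.7% higher, 17.5% lower). The median log2 change over the 36 was 0.11, against 0.035 over all genes. Regardless of direction, the median size of the log2 change was 0.162 over the 36 and 0.166 over all genes. A larger share called thus did not go with a larger typical change. All genes tested include many at lower levels than any of the 36, and the part of level in these shares was not tested. The largest rises were in F11, coagulation factor XI, 1.94 times the control level, and Serpind1, heparin cofactor II, 1.60 times. C9, Mbl2, F12, Cfi, C8b, Proc, Plg and C6 rose by smaller steps, and Fgb and Fgg fell, except that after quantile normalization neither was called and Fgg's change was 0.019. With that normalization 12 factors were higher and 0 lower.

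Of the contact and intrinsic factors, F11 and F12 rose. F11 (ENSMUSG00000031645, mm9 chromosome 8, 46326524 to 46347385), the protease that activates factor IX, showed the largest change of all 36. F11 read 15.5, 15.9 and 14.1 FPKM in the 3 control DMSO libraries against 28.4, 29.6 and 30.1 in the 3 KO-labelled DMSO libraries. Under SR9009, F11 read 9.05, 11.3 and 10.9 FPKM in the control libraries against 21.3, 20.4 and 23.0 in the KO-labelled ones. Both KO-labelled groups lay above both control groups, and each SR9009 group lay below its DMSO group, with no overlap between any of them. Its DMSO means were 15.2 ± 0.934 (control) and 29.4 ± 0.868 FPKM (KO-labelled; SD, n = 3; log2 change 0.91, SE 0.084, adjusted p = 9.01e-06, limma).

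F12, factor XII, which starts the contact pathway on charged surfaces, changed less at a higher level. F12 read 254, 249.8 and 249 FPKM in the 3 control DMSO libraries against 319, 312 and 309 in the 3 KO-labelled DMSO libraries. Under SR9009, F12 read 244, 241 and 245 FPKM in the control libraries against 291, 282 and 279.7 in the KO-labelled ones. The KO-labelled libraries lay above the control ones in each medium without overlap. The DMSO difference was 1.25-fold (log2 change 0.32, SE 0.041, adjusted p = 0.000152, limma).

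Klkb1, plasma prekallikrein, is the close relative of F11 and lies 7.41 kb from it, but its change in DMSO did not pass the test. Klkb1 read 11.9, 12.3 and 13.9 FPKM in the 3 control DMSO libraries against 13.1, 13.4 and 12.8 in the 3 KO-labelled DMSO libraries. Under SR9009, Klkb1 read 8.68, 11.9 and 10.6 FPKM in the control libraries against 12.9, 12.4 and 14.8 in the KO-labelled ones. The DMSO groups overlapped (log2 change 0.044, SE 0.10, adjusted p = 0.813, limma). The ratio of F11 to Klkb1 in control cells was 1.20 ± 0.162 (SD, n = 3) with DMSO and 1.01 ± 0.0508 with SR9009, and in KO-labelled cells 2.25 ± 0.0961 and 1.61 ± 0.0521. Klkb1 overlaps Cyp4v3 by 25189 bases on the same strand, and Cyp4v3 stood at 71.8 FPKM on average and was higher in KO-labelled DMSO (log2 change 0.43, adjusted p = 0.000219, limma). How reads were divided between the pair was not tested. Kng1, the cofactor and bradykinin source of this pathway and its most abundant member, read 635, 641 and 639 FPKM in the control DMSO libraries against 622, 685 and 687 in the KO-labelled ones. Those groups overlapped (log2 change 0.057, SE 0.052, adjusted p = 0.496, limma).

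Among the anticoagulants, Serpind1 and Proc rose. Serpind1 (ENSMUSG00000022766, mm9 chromosome 16, 17331464 to 17343668), an inhibitor of thrombin that heparin and dermatan sulfate activate, had the next largest change. Serpind1 read 34.9, 36.0 and 35.7 FPKM in the 3 control DMSO libraries against 53.8, 58.0 and 59.2 in the 3 KO-labelled DMSO libraries. Under SR9009, Serpind1 read 36.9, 31.4 and 32.8 FPKM in the control libraries against 58.6, 57.0 and 66.2 in the KO-labelled ones. All 6 KO-labelled libraries lay above all 6 control libraries, while the 2 media overlapped within each genotype. The DMSO means were 35.6 ± 0.559 and 57.0 ± 2.83 FPKM (SD, n = 3; log2 change 0.66, SE 0.074, adjusted p = 4.61e-05, limma). Serpind1 lies inside Pi4ka, on the opposite strand, over 12205 bases. Pi4ka, a lipid kinase at 11.2 FPKM on average, was higher in KO-labelled DMSO too (log2 change 0.37, adjusted p = 0.0198, limma). The overlap is of whole gene spans, exons were not compared, and the strand setting is not known. How reads were divided between the pair was not tested.

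Proc, protein C, which inactivates factors V and VIII, averaged 138 ± 5.26 FPKM in control against 163 ± 3.94 in KO-labelled cells with DMSO (SD, n = 3; log2 change 0.23, SE 0.055, adjusted p = 0.0106, limma). Serpinc1, antithrombin, was the most abundant anticoagulant. Serpinc1 read 573, 596 and 571 FPKM in the 3 control DMSO libraries against 612, 650.2 and 631 in the 3 KO-labelled DMSO libraries. Under SR9009, Serpinc1 read 574, 566 and 563 FPKM in the control libraries against 622, 610.4 and 625 in the KO-labelled ones. Its KO-labelled libraries lay above the control ones in both media, but the change did not pass the test (log2 change 0.12, SE 0.043, adjusted p = 0.0674, limma). Pros1, the cofactor of protein C, was not called either (log2 change -0.15, adjusted p = 0.123, limma).

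Of the fibrinogen chains, which pair in equal numbers to form the clot protein, Fgb and Fgg fell and Fga did not pass the test. Fgb read 2963, 3099 and 3009 FPKM in the 3 control DMSO libraries against 2439, 2661 and 2659.9 in the 3 KO-labelled DMSO libraries. Under SR9009, Fgb read 3021, 2997 and 3160.4 FPKM in the control libraries against 2653, 2601 and 2699 in the KO-labelled ones. All 6 KO-labelled libraries lay below all 6 control libraries. The DMSO means were 3023 ± 69.3 and 2586 ± 128 FPKM (SD, n = 3; log2 change -0.23, SE 0.048, adjusted p = 0.00575, limma), but after quantile normalization the change was not called (adjusted p = 0.0856).

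Fgg read 1954, 2031 and 2052 FPKM in the 3 control DMSO libraries against 1579, 1742 and 1704 in the 3 KO-labelled DMSO libraries. Under SR9009, Fgg read 2046, 2001 and 2070.4 FPKM in the control libraries against 1748, 1709 and 1816 in the KO-labelled ones. The genotypes were again apart in both media. Fgg's change of -0.27 (log2, SE 0.049, adjusted p = 0.00236, limma) became 0.019 after quantile normalization (adjusted p = 0.832).

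Fga read 1838, 1904 and 1900.5 FPKM in the 3 control DMSO libraries against 1667, 1789 and 1908 in the 3 KO-labelled DMSO libraries. Under SR9009, Fga read 1746, 1726 and 1643 FPKM in the control libraries against 1701, 1681 and 1773 in the KO-labelled ones. The genotypes overlapped in both media, with a DMSO change of -0.075 (log2, SE 0.054, adjusted p = 0.379, limma), whereas quantile normalization called it higher (0.20, adjusted p = 0.0153). Ratios within a library do not depend on a common scaling factor. Fgb to Fga was 1.61 ± 0.0227 (SD, n = 3) in control against 1.45 ± 0.0484 in KO-labelled cells with DMSO, and Fgg to Fga was 1.07 ± 0.00874 against 0.938 ± 0.0412, with no overlap between the groups in either ratio. With SR9009, Fgb to Fga was 1.80 ± 0.110 in control and 1.54 ± 0.0191 in KO-labelled cells, and Fgg to Fga 1.20 ± 0.0550 and 1.02 ± 0.00541. Both ratios were thus also higher with SR9009 than with DMSO in each genotype, without overlap. The ratios were not tested. The genes lie side by side, with 11.1 kb between Fgg and Fga and 8.13 kb between Fga and Fgb. F13b, the carrier subunit of the crosslinking factor XIII, was not called in DMSO (log2 change 0.15, adjusted p = 0.129, limma).

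None of the 4 vitamin K-dependent zymogens and not F5 passed the test in DMSO. F2, prothrombin, was the most abundant zymogen. F2 read 691, 693 and 679.7 FPKM in the 3 control DMSO libraries against 717, 742 and 729.8 in the 3 KO-labelled DMSO libraries. Under SR9009, F2 read 700.2, 650.2 and 689.6 FPKM in the control libraries against 692, 658 and 707 in the KO-labelled ones. The DMSO groups did not overlap, but the difference of 0.084 (log2, SE 0.047) gave adjusted p = 0.242 (limma). F7, which starts clotting with tissue factor, F9 and F10, the proteases that lead to thrombin, had log2 differences of 0.10, -0.030 and 0.054, with adjusted p of 0.208, 0.825 and 0.762 (limma). F5, the cofactor of factor X, varied more. F5 read 25.4, 23.9 and 25.6 FPKM in the 3 control DMSO libraries against 31.8, 26.5 and 29.7 in the 3 KO-labelled DMSO libraries. Under SR9009, F5 read 28.2, 26.5 and 18.4 FPKM in the control libraries against 22.6, 25.5 and 29.3 in the KO-labelled ones. Control SR9009 library 3 held the lowest value, the DMSO groups did not overlap, and the change in DMSO was 0.22 (log2, SE 0.14, adjusted p = 0.300, limma).

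In fibrinolysis, Plg, plasminogen, rose. Plg read 433, 445 and 448 FPKM in the 3 control DMSO libraries against 493, 524 and 528 in the 3 KO-labelled DMSO libraries. Under SR9009, Plg read 432, 419 and 413 FPKM in the control libraries against 489, 469.9 and 508 in the KO-labelled ones. The KO-labelled libraries lay above the control libraries in each medium (log2 change 0.22, SE 0.048, adjusted p = 0.00683 in DMSO, limma). Serpinf2, the inhibitor of plasmin, and Cpb2, a carboxypeptidase that protects fibrin, were not called by genotype in DMSO (log2 changes -0.030 and 0.018).

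Of the 4 lectin pathway members, Mbl2 rose and the other 3 did not pass the test. Mbl2 (ENSMUSG00000024863, mm9 chromosome 19, 30307418 to 30314175), mannose-binding lectin C, binds microbial sugars. Mbl2 read 146, 161 and 157 FPKM in the 3 control DMSO libraries against 193, 200.3 and 211 in the 3 KO-labelled DMSO libraries. Under SR9009, Mbl2 read 132, 136 and 162 FPKM in the control libraries against 209.8, 199 and 215 in the KO-labelled ones. All 6 KO-labelled libraries lay above all 6 control libraries, and the media overlapped within each genotype. The DMSO means were 155 ± 7.70 and 202 ± 8.90 FPKM (SD, n = 3; log2 change 0.38, SE 0.075, adjusted p = 0.00340, limma). Mbl1, the other mannose-binding lectin, showed no such pattern, at 59.6, 74.7 and 60.9 and 47.5, 60.1 and 52.7 FPKM in the same groups (log2 change -0.28, SE 0.13, adjusted p = 0.157, limma). Masp1 and Masp2, the proteases that lectins activate, had log2 differences of 0.16 and 0.16 and did not pass (adjusted p = 0.326 and 0.0803, limma). Masp2 overlaps Tardbp on the opposite strand over 3118 bases.

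Of the 6 terminal components, which assemble into the membrane pore, C9, C8b and C6 rose and the estimates of all 6 were above 0. C9 (ENSMUSG00000022149, mm9 chromosome 15, 6395327 to 6448751) forms the ring of the pore. C9 read 98.0, 97.1 and 98.0 FPKM in the 3 control DMSO libraries against 123, 129.9 and 133 in the 3 KO-labelled DMSO libraries. Under SR9009, C9 read 87.7, 93.5 and 95.05 FPKM in the control libraries against 129.8, 131 and 143 in the KO-labelled ones. All KO-labelled libraries were above all control libraries. The DMSO means were 97.7 ± 0.554 and 129 ± 5.09 FPKM (SD, n = 3; log2 change 0.39, SE 0.055, adjusted p = 0.000306, limma).

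The 3 chains of C8 come from 3 genes, of which C8b passed the test. C8b read 77.8, 83.0 and 78.7 FPKM in the 3 control DMSO libraries against 91.7, 103 and 98.4 in the 3 KO-labelled DMSO libraries. C8a read 97.7, 93.6 and 97.3 FPKM in the 3 control DMSO libraries against 94.0, 100.2 and 101 in the 3 KO-labelled DMSO libraries. C8g read 167, 177 and 171 FPKM in the 3 control DMSO libraries against 182, 205 and 191 in the 3 KO-labelled DMSO libraries. C8b, the beta chain, was apart between genotypes and passed the test (log2 change 0.29, SE 0.061, adjusted p = 0.00536, limma). C8a, the alpha chain 11.1 kb away, overlapped (log2 change 0.033, adjusted p = 0.752), and C8g, the lipocalin chain and the most abundant terminal component, did not overlap but was not called (log2 change 0.17, adjusted p = 0.111). Under SR9009, C8b read 75.8, 69.1 and 75.3 FPKM in the control libraries against 102, 94.7 and 102 in the KO-labelled ones. Under SR9009, C8a read 96.2, 94.3 and 84.3 FPKM in the control libraries against 90.9, 95.02 and 99.7 in the KO-labelled ones. Under SR9009, C8g read 164, 174 and 194 FPKM in the control libraries against 206, 191 and 189.8 in the KO-labelled ones. With the compound, too, C8b was apart between genotypes, and C8a and C8g overlapped. C8g overlaps Fbxw5 on the opposite strand over 970 bases. Hc, complement C5, missed the threshold (log2 change 0.23, adjusted p = 0.0578), and C6 passed it narrowly (log2 change 0.20, adjusted p = 0.0407, limma). C6 lost its call when any single library of the groups compared was left out. It also lost it without a filter on low values, without trend and robust variance, and without the shallowest pair of libraries (adjusted p up to 0.145 over the alternatives, limma).

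Of the convertase parts none passed in DMSO. Cfb was lower in every KO-labelled library (117 to 133 FPKM) than in every control library (141 to 144 FPKM) there. Its log2 change of -0.18 (SE 0.245) was not called (adjusted p = 0.653, limma). The spread in that fit was taken from all 12 libraries, among them control SR9009 library 1, where Cfb stood at 318 FPKM. C3, at the centre of all pathways, was by far the most abundant convertase part. It read 1059.5, 1020.4 and 1061 FPKM in the control DMSO libraries against 1084, 1052 and 1081 in the KO-labelled ones. Under SR9009, C3 read 1111, 1091 and 867 FPKM in the control libraries against 944, 989.5 and 1041 in the KO-labelled ones. The genotypes overlapped in both media (log2 change 0.034, SE 0.081, adjusted p = 0.810 in DMSO, limma). C4b, complement C4, differed by -0.094 (log2, not called, adjusted p = 0.350), but its near-identical copy C4a, named after its values were seen, rose with a mean of 7.54 ± 0.585 FPKM in control and 12.6 ± 2.12 in KO-labelled cells (log2 change 0.67, adjusted p = 0.00132, limma), and reads can be split between the pair. Cfi, the protease that cuts C3b and C4b, was the more abundant regulator and rose. Cfi read 175, 178 and 175 FPKM in the 3 control DMSO libraries against 213, 220.1 and 222 in the 3 KO-labelled DMSO libraries. Under SR9009, Cfi read 161, 173 and 174 FPKM in the control libraries against 205, 206 and 213 in the KO-labelled ones. KO-labelled libraries lay above control ones in each medium (log2 change 0.31, SE 0.046, adjusted p = 0.000526 in DMSO, limma). C4bp, its cofactor, was not called (log2 change -0.059, adjusted p = 0.515, limma).

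**Figure D2:**
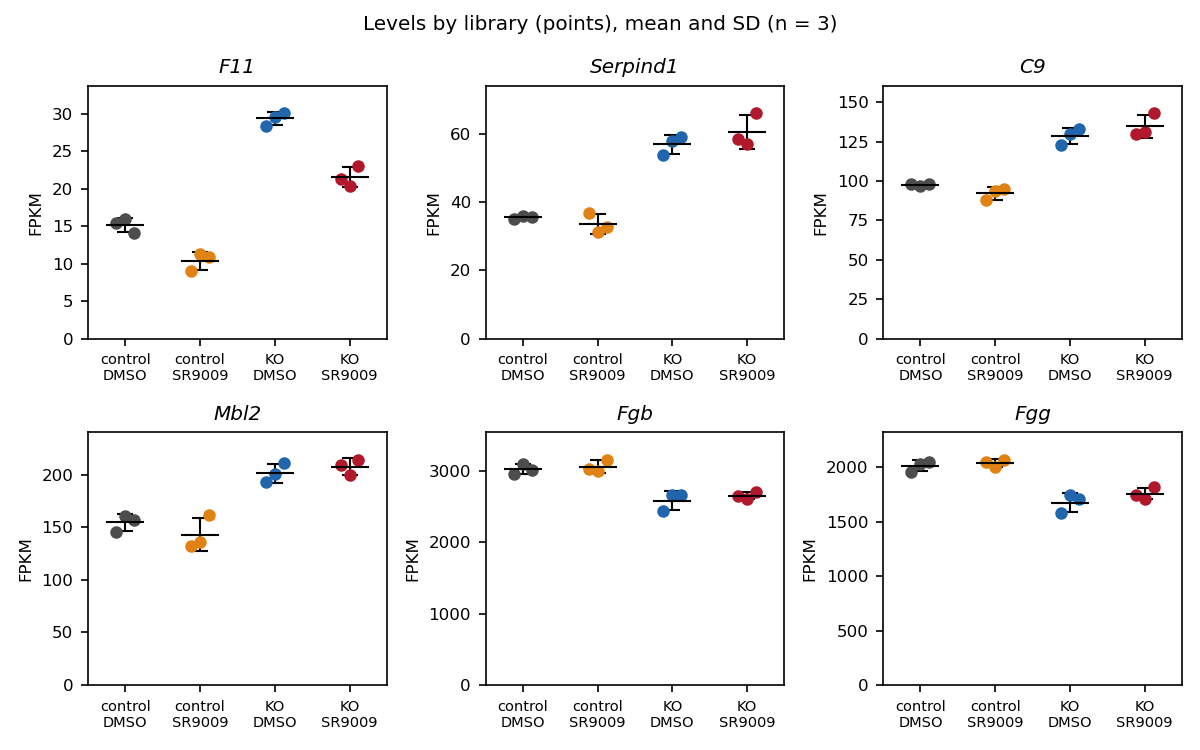
FPKM of F11, Serpind1, C9, Mbl2, Fgb and Fgg in each library (points, 3 a group) with the group mean and SD (bars), 1 panel a gene. F11 separates all 4 groups, Serpind1, C9 and Mbl2 are higher in all 6 KO-labelled libraries, and Fgb and Fgg are lower there on deposited values, with Fgg at a change of 0.019 after quantile normalization.

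The comparison of genotypes under SR9009 set the means of 6 other libraries against each other, but all 12 libraries shared 1 estimate of the spread, so the tests in the 2 media are not independent. With the compound 16 of the 36 factors differed, 14 higher and 2 lower in KO-labelled cells (limma, adjusted p under 0.05), which is 44.4% against 20.4% of all genes tested (12.9% higher, 7.43% lower). In 23 the groups did not overlap (19 higher, 4 lower), against 34.9% of all genes (22.7% higher, 12.3% lower). Regardless of direction, the median size of the log2 change was 0.176 over the 36 and 0.166 over all genes. The 12 factors called in DMSO were called again in the same direction, which is 100% of the DMSO list and 75% of the list under SR9009, and for all genes the 1484 shared calls made 66.2% and 65%. After quantile normalization the split under SR9009 was 15 higher and 0 lower.

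F11 was 2.08 times as high in KO-labelled as in control cells under SR9009 (log2 change 0.99, SE 0.084, adjusted p = 3.87e-06, limma), and Serpind1 1.80 times (log2 change 0.83, SE 0.074, adjusted p = 6.35e-06). C2, C9, Mbl2 and C8b followed with log2 changes of 0.60, 0.54, 0.54 and 0.44 (adjusted p = 0.00120, 1.90e-05, 0.000250 and 0.000262). Fgb and Fgg fell here too, by 0.21 and 0.21 on the log2 scale (adjusted p = 0.00921 and 0.00837), while quantile normalization left Fgb uncalled (adjusted p = 0.146) and Fgg at 0.018 (adjusted p = 0.850). Fga, not called on deposited values, was called higher after that normalization (0.23).

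The 4 factors called under SR9009 alone were C2, the protease of the classical convertase, Klkb1, F13b and F7. Their log2 changes were 0.60, 0.35, 0.30 and 0.23, with adjusted p of 0.00120, 0.0353, 0.00523 and 0.0103 (limma). None of the 4 passed the test of a difference between the media (interaction adjusted p = 0.700, 0.725, 0.802 and 0.812). Klkb1 lost its call without control SR9009 library 1 or 3 or without KO-labelled SR9009 library 1 or 3 (adjusted p up to 0.140 over the alternatives), and Proc without KO-labelled SR9009 library 3 (adjusted p = 0.0537). Klkb1, F7, Proc and Plg were not called in a fit of the compared groups alone (adjusted p = 0.108, 0.0620, 0.0650 and 0.0512), nor was Klkb1 after quantile normalization (0.0888), without a filter on low values (0.0768) or without the shallowest pair of libraries (0.129).

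**Figure D3:**
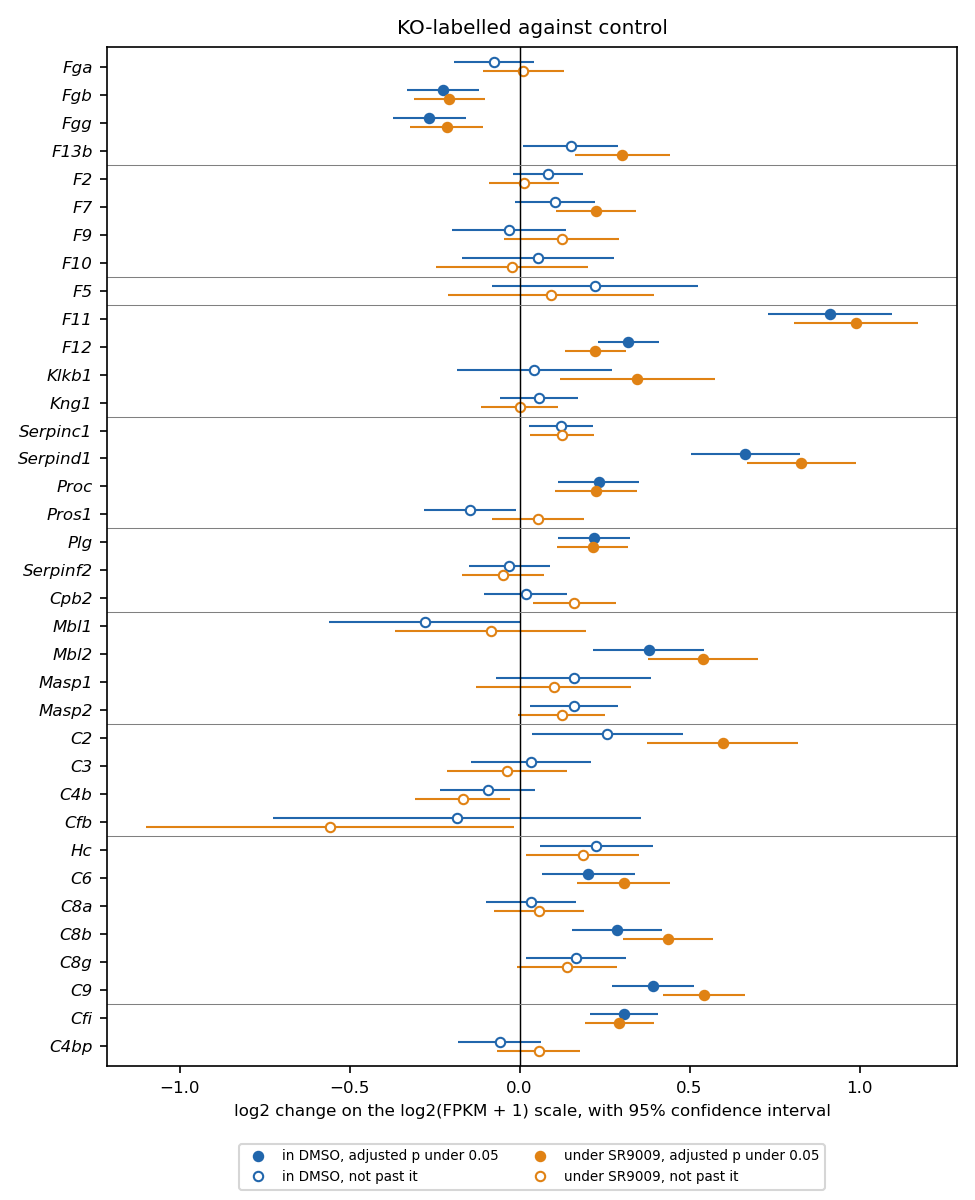
Difference between KO-labelled and control cells in log2(FPKM + 1) for the 36 factors, in DMSO and under SR9009; points are estimates, lines 95% confidence intervals from the fit, and 0 means no difference. F11 (0.91 and 0.99) and Serpind1 (0.66 and 0.83) lie farthest right, and Fgb and Fgg lie left of 0 on deposited values (Fgg at 0.019 and 0.018 after quantile normalization).

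SR9009 was then compared with DMSO within each genotype. Control cells showed 2 factors lower and 0 higher out of 36 (limma, adjusted p under 0.05), which is 5.56% against 8.24% of all genes tested (4.55% lower, 3.69% higher). Groups did not overlap in 16, all of them lower with SR9009, against 25% of all genes (14.2% lower, 10.8% higher). An unadjusted p under 0.05 was found in 9 of the 36 factors and in 2426 of the 11213 genes tested. The median log2 change was -0.076 over the 36 and -0.016 over all genes. In KO-labelled cells 3 factors were called, 1 higher and 2 lower, which is 8.33% against 9.87% of all genes (5.32% higher, 4.56% lower). Groups there did not overlap in 10 (2 higher, 8 lower), against 32.3% of all genes (16.9% higher, 15.4% lower). The median log2 changes there were -0.023 and 0.0042. Quantile normalization gave 1 higher and 4 lower in KO-labelled cells. The shares called were thus near the background in both genotypes.

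F11 fell with SR9009 in both genotypes. Its mean went from 15.2 ± 0.934 to 10.4 ± 1.18 FPKM in control cells (SD, n = 3; log2 change -0.51, SE 0.084, adjusted p = 0.00293, limma), and from 29.4 ± 0.868 to 21.6 ± 1.30 in KO-labelled cells (log2 change -0.43, SE 0.084, adjusted p = 0.00663). As the library values above show, every SR9009 library was below every DMSO library of its genotype. The level in KO-labelled SR9009 was still above that in control DMSO in every library. The 2 falls differed by 0.079 (log2, 95% interval -0.18 to 0.34, adjusted p = 0.938, limma).

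Serpinf2 (α2-antiplasmin) also fell in both. Serpinf2 read 143, 153 and 149 FPKM in the 3 control DMSO libraries against 144, 142 and 150.4 in the 3 KO-labelled DMSO libraries. Under SR9009, Serpinf2 read 125, 121 and 132 FPKM in the control libraries against 123, 115 and 128 in the KO-labelled ones. SR9009 and DMSO libraries did not overlap in either genotype, while the genotypes overlapped in each medium. The log2 change was -0.23 in control cells (SE 0.055, adjusted p = 0.0228) and -0.25 in KO-labelled cells (SE 0.055, adjusted p = 0.0125, limma). The call was lost in control cells without control DMSO library 2 or 3 or control SR9009 library 1 or 2. It was also lost there with the compared groups alone, without trend and robust variance, and without the shallowest pair of libraries (adjusted p up to 0.0999 over the alternatives, limma). In KO-labelled cells it was lost without KO-labelled DMSO library 3 or KO-labelled SR9009 library 2 (up to 0.0651).

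Cpb2 rose with SR9009 in KO-labelled cells. Cpb2 read 241, 226 and 224 FPKM in the 3 control DMSO libraries against 231, 228 and 239.6 in the 3 KO-labelled DMSO libraries. Under SR9009, Cpb2 read 231, 246 and 261 FPKM in the control libraries against 285, 273 and 266 in the KO-labelled ones. The KO-labelled media were apart and the control media overlapped. Changes were 0.24 (log2, SE 0.056, adjusted p = 0.0199) in KO-labelled and 0.092 (adjusted p = 0.386) in control cells, and the difference of 0.14 (95% interval -0.030 to 0.32) did not pass the test (adjusted p = 0.769, limma). Leaving out KO-labelled DMSO library 1 or 2, or KO-labelled SR9009 library 1 or 2, ended the call. A fit without trend and robust variance ended it too (adjusted p up to 0.0918 over the alternatives, limma).

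No other factor passed with SR9009. F12 came nearest in KO-labelled cells (log2 change -0.14, SE 0.041, adjusted p = 0.0506, limma). Log2 differences of Fgb and Fgg were 0.017 and 0.019 in control cells and 0.037 and 0.071 in KO-labelled cells, none of them called, and those of Fga -0.14 and -0.056. Serpind1, C9 and Mbl2, which differed by genotype, had log2 differences with SR9009 of -0.079, -0.086 and -0.12 in control cells (adjusted p = 0.598, 0.412 and 0.416) and of 0.085, 0.064 and 0.045 in KO-labelled cells (adjusted p = 0.542, 0.537 and 0.781).

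The interaction of genotype and compound was called in 0 of the 36 factors (limma, the single tool run), against 0.0268% of all genes. An unadjusted p under 0.05 was found in 787 of the 11213 genes tested and in 2 of the 36 factors, C2 and Pros1. Their interactions were 0.34 (log2, 95% interval 0.025 to 0.65) and 0.20 (0.010 to 0.39). A miss of the threshold does not show that the compound acted alike in both genotypes.

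**Figure D4:**
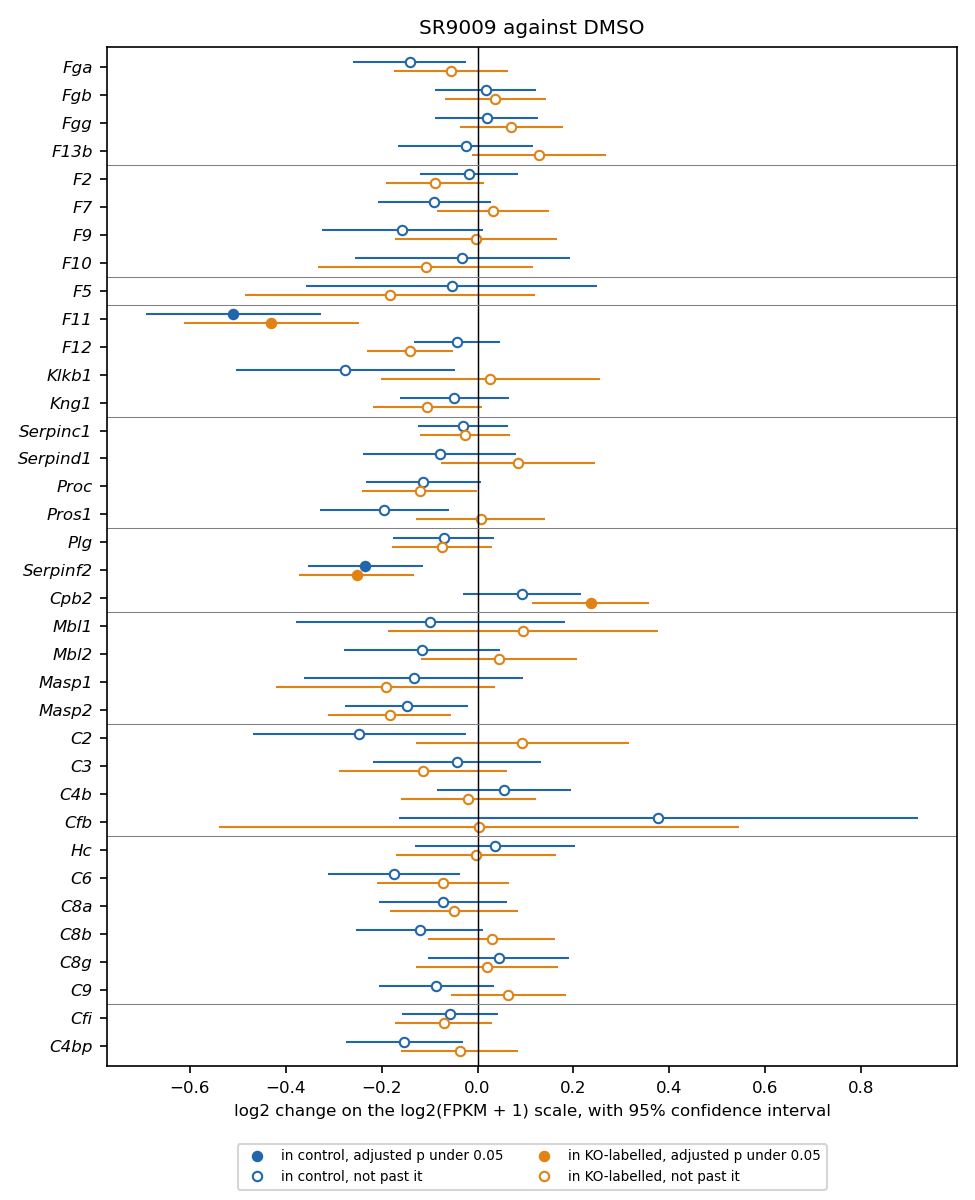
Difference between SR9009 and DMSO in log2(FPKM + 1) for the 36 factors, in control and in KO-labelled cells; points are estimates, lines 95% confidence intervals from the fit. F11 lies farthest left in both (-0.51 and -0.43), Serpinf2 left (-0.23 and -0.25), and Cpb2 right in KO-labelled cells (0.24).

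Cfb, factor B of the alternative convertase, and C2 are neighbouring relatives whose gene models overlap by 6107 bases on the same strand, and both were singled out after their values were seen. Cfb stood at 318, 134 and 149 FPKM in control SR9009, and between 117 and 149 in the 11 libraries other than control SR9009 1. An unnamed gene model, CT025759.1, shares 5540 bases with both. It stood at 52.8, 238 and 205 FPKM in control SR9009 and at 205 to 261 in the 11 others. Thus the library with the high Cfb value held the low value of the shared model. The sum of C2, Cfb and CT025759.1 was 382 to 430.1 FPKM over the 12 libraries, with 393 in control SR9009 1. C2 read 29.6, 26.2 and 31.6 FPKM in the 3 control DMSO libraries against 38.2, 30.7 and 36.3 in the 3 KO-labelled DMSO libraries. Under SR9009, C2 read 21.9, 23.9 and 27.6 FPKM in the control libraries against 38.6, 38.4 and 35.2 in the KO-labelled ones. C2 was apart between genotypes under SR9009 and overlapped in DMSO. Its call under SR9009 therefore rests on a model that shares sequence with 2 others, and how reads were divided among them was not tested.

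**Figure D5:**
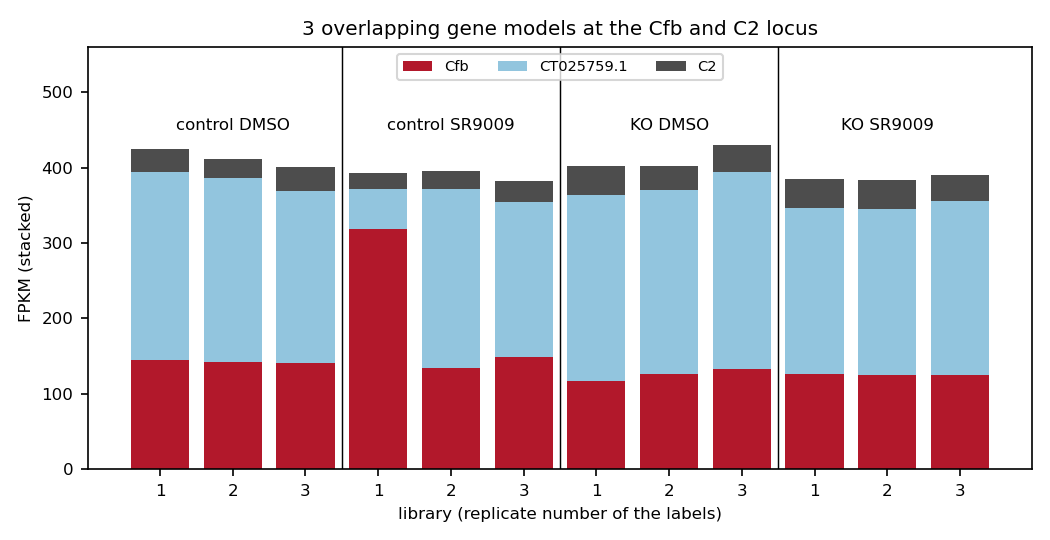
Stacked FPKM of Cfb, CT025759.1 and C2 in each of the 12 libraries. The stacks reach 382 to 430.1 in every library, while control SR9009 library 1 holds 318 of Cfb and 52.8 of CT025759.1.

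Other genes of these pathways, from a list of 57, were measured beside the factors; 40 passed the filter, and Tfpi, F8, Vwf, Thbd, Serpina5, Plat, Plau, F13a1, C7, Cd46, Cr2, C3ar1, C5ar1, Colec10, Colec11, Fcnb and Vsig4 did not. In KO-labelled DMSO 8 of the 40 were higher and 7 lower, 37.5% called against 20% of all genes tested (limma). Under SR9009 10 were higher and 5 lower in KO-labelled cells, 37.5% against 20.4% of all genes. With SR9009, 4 were higher and 1 lower in control cells, 12.5% against 8.24% of all genes, and 2 were higher and 2 lower in KO-labelled cells, 10% against 9.87%. None passed the interaction test.

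Fgl1, a fibrinogen-like protein secreted by hepatocytes, fell in KO-labelled DMSO, to a mean of 108 ± 4.73 FPKM against 392 ± 16.0 (SD, n = 3; log2 change -1.85, SE 0.063, adjusted p = 1.82e-09, limma). Cfd, the protease that cuts factor B, read 1.26, 1.59 and 1.30 FPKM in the control DMSO libraries and is listed at 0, 0 and 0.123 in the KO-labelled ones. Ggcx, the carboxylase that vitamin K-dependent factors need, rose to 12.020 ± 0.832 FPKM against 6.69 ± 0.36 (log2 change 0.76, SE 0.098, adjusted p = 0.000159). On the log2 scale F11 alone of the 36 factors changed by more than Ggcx in DMSO.

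Procr, the endothelial protein C receptor, rose with SR9009, in control cells to 6.11 ± 0.638 FPKM against 2.41 ± 0.364 (log2 change 1.06, SE 0.17, adjusted p = 0.00224, limma) and in KO-labelled cells to 9.17 ± 1.68 against 2.60 ± 0.843 (log2 change 1.51, SE 0.17, adjusted p = 0.000151). F3, tissue factor, rose with SR9009 in control cells to 29.7 ± 1.38 FPKM against 21.6 ± 1.52 (log2 change 0.44, SE 0.10, adjusted p = 0.0217), and was 12.999 ± 1.04 in KO-labelled DMSO and 14.3 ± 2.23 in KO-labelled SR9009. C1qa and C1qb, parts of the starter of the classical pathway and also Kupffer cell markers, were lower in KO-labelled DMSO (log2 changes -0.62 and -0.77). Under SR9009 neither was called (log2 changes -0.47 and -0.41, adjusted p = 0.106 and 0.0985, limma). Both are part of the Kupffer marker sum given above, so that sum is not separate from them. Within it in DMSO, Marco averaged 9.52 FPKM in control and 1.66 in KO-labelled cells, and Cd68, the 1 marker called higher, 18.3 and 23.7. Endothelial markers summed to 7.25 to 8.74 FPKM in control SR9009 and 10.84 to 10.98 in KO-labelled SR9009, against 7.03 to 7.93 and 10.8 to 16.1 in DMSO.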

How the data were processed

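Polyadenylated, ribosome-depleted RNA of 12 hepatocyte libraries, 3 in each of 4 groups, was sequenced, per the labels' protocols. HISAT2 and StringTie were used with the mm9 build, per the submitters' processing notes. Their versions, the annotation and the strandedness of counting are not given in the sources used. The table the authors deposited holds 37991 genes, and its header names no unit. These deposited values are read here as FPKM, since library sums differ (538521 to 604449) and low values fall on steps. The relation of the steps to gene length was not tested, so the unit is an assumption. Total counts are thus unknown, and steps give relative depth only.

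Genes reaching 1 FPKM in 3 or more libraries (11213) were tested as log2(FPKM + 1) with limma 3.58.1 in R 4.3.3, with trend and robust variance, a mean per group and all 12 libraries in the fit. Fold changes on this scale understate the change of low genes; folds in the text are ratios of mean FPKM. P-values were adjusted by Benjamini-Hochberg over all genes tested, threshold 0.05, for 5 comparisons. No 2 libraries held equal values in more than 0.0535% of genes. The scripts were tested on simulated data. Values in every library are given for up to 5 factors per direction and comparison with the largest changes past the threshold, the most abundant of each role and the subunits of fibrinogen and C8; of other pathway genes, those with the smallest p, of which 1 is not reported here. The factors and lists were chosen with earlier results of these data known. Alternatives were pseudocounts of 0.1 and 5, no filter or 5 FPKM, quantile normalization, equal library sums, the compared groups alone, a replicate block, no trend, leaving out each library, and leaving out the shallowest pair. Protein sequences and a genome of the mm9 build were not used here.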

Additional observations from a re-analysis of the deposited data

Results flagged for a closer look

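Pros1, protein S, read lower in every KO-labelled than in every control library in DMSO and higher under SR9009, but neither difference passed the test (log2 change -0.15, adjusted p = 0.123 in DMSO, log2 change 0.055, adjusted p = 0.585 under SR9009, limma). Pros1 read 11.9, 11.8 and 12.1 FPKM in the 3 control DMSO libraries against 10.5, 10.4 and 11.2 in the 3 KO-labelled DMSO libraries. Under SR9009, Pros1 read 10.042, 10.4 and 10.4 FPKM in the control libraries against 10.8, 10.989 and 10.5 in the KO-labelled ones. The highest level was thus in control DMSO and the lowest in control SR9009. The test of the difference itself, the interaction, gave 0.20 on the log2 scale (SE 0.087, limma adjusted p = 0.710) and did not pass.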

How the results depend on the processing

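Of 33 calls of factors over the comparisons, 21 passed under every alternative run, 12 were lost under at least 1 and 2 changed direction: Fgg in KO-labelled against control cells in DMSO (0.019) and under SR9009 (0.018) after quantile normalization; the cause was not tested. The count for SR9009 in KO-labelled cells was 5 after quantile normalization, and in control cells 1 with the compared groups alone, without trend and robust variance, and without control SR9009 library 1 and KO-labelled DMSO library 1. Leaving out each library in turn gave 11 to 12 factors for genotype in DMSO, 14 to 19 under SR9009, 1 to 2 for SR9009 in control cells, 1 to 3 in KO-labelled cells and 0 for the interaction. Equal library sums gave 18 and 20 factors by genotype in DMSO and under SR9009, with 2315 and 2513 of all genes called against 2240 and 2283 on deposited values; the median log2 change of all genes was then 0.089 and 0.11, against 0.035 and 0.057. Over all genes, the 924 calls for SR9009 in control cells became 415 with the compared groups alone, 605 without the shallowest pair, and 536, 545 and 531 without control DMSO library 1, 2 or 3; the 1107 in KO-labelled cells became 604 and 672 without KO-labelled SR9009 library 1 or 2 and 703 without KO-labelled DMSO library 3; the 3 interaction calls ranged from 0 to 5. Relative depth of the shallowest pair was 55.5% and 63.4%; its part in these counts was not tested, since leaving that pair out also lowers the number of libraries.

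Libraries share only replicate numbers. Deviations from group means correlated at -0.11 to 0.12 over 18 same-numbered pairs and at -0.12 to 0.18 over 36 others, and in 13 of 36 cases the best match had the same number. A fit with the replicate number as a block called 12, 2, 3, 16 and 0 factors for genotype in DMSO, SR9009 in control, SR9009 in KO-labelled, genotype under SR9009 and the interaction, the same counts as without the block.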
